A study of Mus musculus with 9 samples.

Results

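The genes described here are 9 markers of epithelial and mesenchymal cell character in mouse embryonic stem cells (ESCs), namely Cdh1, Cdh2, Epcam, Cldn6, Cldn7, Krt8, Krt18, Vim and Fn1. They were chosen by gene symbol, with earlier results of these data known, and all 9 were found among the 15074 genes of the deposited expression table. Over 4 days of differentiation, the junction genes Cdh1, Cldn6 and Cldn7 rose and the mesenchymal genes Vim and Fn1 fell. Only the day 0 cultures were grown on fibroblast feeders, whose part in these values was not tested. Over the lines, Vim differed by -1.19 on the log2 scale from day 0 to day 2 and by -0.07 after it. From day 0 to day 4, the keratin genes Krt8 and Krt18 were lower in wild type and higher in the line that carries catalytically inactive DNMT1. That line held both the lowest and the highest value of each gene.

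Epithelial cells are joined side by side. Cadherins of the adherens junction hold neighbouring cells together through calcium-dependent contacts, claudins seal the tight junction, and keratins form the intermediate filaments inside the cell. Mesenchymal cells have looser contacts, build their intermediate filaments from vimentin and deposit fibronectin around them. When epithelial cells become mesenchymal, as in the primitive streak of the embryo, E-cadherin typically gives way to N-cadherin, and ESCs are themselves E-cadherin positive cells that grow in compact colonies.

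The study asked how DNMT1, the enzyme that copies DNA methylation to the new strand after replication, affects ESCs before and during differentiation. WT is the J1 mouse ESC line, 1KO is a Dnmt1-/- line derived from J1, and 1KO+1CI is 1KO carrying a CAG promoter-driven transgene for the catalytically inactive protein DNMT1CI. Each line was sequenced at day 0, when it was cultured on mitomycin C-treated embryonic fibroblast feeders with serum and LIF, and at days 2 and 4 after feeder removal, culture as embryoid bodies without LIF and re-plating as adherent cells. There was 1 poly(A) RNA library for each of the 9 conditions, and the 3 libraries of a line come from the same cell line, so an effect of its genotype and one of the clone cannot be told apart.

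The values are FPKM, reads per kilobase of transcript scaled to library size, and are compared as given. This scaling does not make the libraries fully alike, and summed FPKM ran from 391226 (WT day 2) to 436945 (WT day 4). Recovered depths were 20080000 to 27920000 reads if 1 step in the values is 1 read. With the mean transcript length of each gene, this puts between 269 (Cldn7) and 45125 (Fn1) reads behind each value of the 9 genes. For Cldn7 and Fn1, whose FPKM appears to be a mean over 2 and 7 transcripts, these counts and the counting intervals are approximate. The intervals on ratios between libraries given below cover this counting error only. Dnmt1 was listed at 74.0, 80.4 and 48.5 FPKM in WT cells at days 0, 2 and 4, at 13.7, 17.4 and 12.3 FPKM in 1KO cells and at 315, 129 and 158 FPKM in 1KO+1CI. The transgene and what remains of the disrupted gene share this symbol. The ESC markers Pou5f1 and Tdgf1 were abundant in every library, Pou5f1 at 632 to 1008 FPKM, while Zfp42 and Esrrb fell by 3.94 and 3.77 on the log2 scale from day 0 to day 4 (adjusted p = 0.000271 and 0.000444).

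In the GRCm38 (mm10) genome with GENCODE M21 annotation, Cdh1 lies at chr8:106603351-106670246 on the plus strand and Cdh2 at chr18:16588877-16809246 on the minus strand. Epcam (chr17:87635979-87651129) and Cldn6 (chr17:23679249-23682446) are both on the plus strand, as are Cldn7 (chr11:69964779-69967885) and Vim (chr2:13573927-13582826). Fn1 is on the minus strand at chr1:71585520-71653200. Krt8 (chr15:101996698-102004482, minus strand) and Krt18 (chr15:102028180-102032027, plus strand) are neighbours in the keratin cluster and are transcribed away from each other.

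Because no condition has a replicate, tests could be made only over the lines and over the days. A limma fit with additive line and day terms was made on log2(FPKM + 1) for 12528 genes with at least 1 FPKM in at least 3 libraries. Its error is the amount by which the 9 libraries depart from a sum of a line effect and a day effect. A day difference is thus read against how unevenly it appeared in the lines, and a line difference against how unevenly it appeared on the days. It does not measure variation between cultures or between clones, and whether a line alters a day difference cannot be tested. For 2 single libraries, no test was possible and a gene is described as over 2-fold apart or not.

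From day 0 to day 4, 5 of the 9 genes passed the test (adjusted p under 0.05), against 25.6% of all genes tested. Cldn7, Cldn6 and Cdh1 rose, with 12.5% of all genes rising. Fn1 and Vim fell, with 13.1% of all genes falling. The median difference was 0.50 on the log2 scale for the 9 genes and 0.02 for all genes tested. From day 0 to day 2, only the fall of Vim and Fn1 passed the test among the 9 genes, which compares with 17.8% of all genes called, 9.06% rising and 8.74% falling. From day 2 to day 4, 5 of the 9 passed, with Cldn7, Cldn6, Cdh1 and Epcam rising and Fn1 falling. Of all genes, 26.6% were called over that step, 12.7% rising and 14.0% falling. The rise of the junction genes lay mostly between days 2 and 4, whereas Vim differed little over that step (-0.07 ± 0.20 SE, adjusted p = 0.811).

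**Figure D1:**
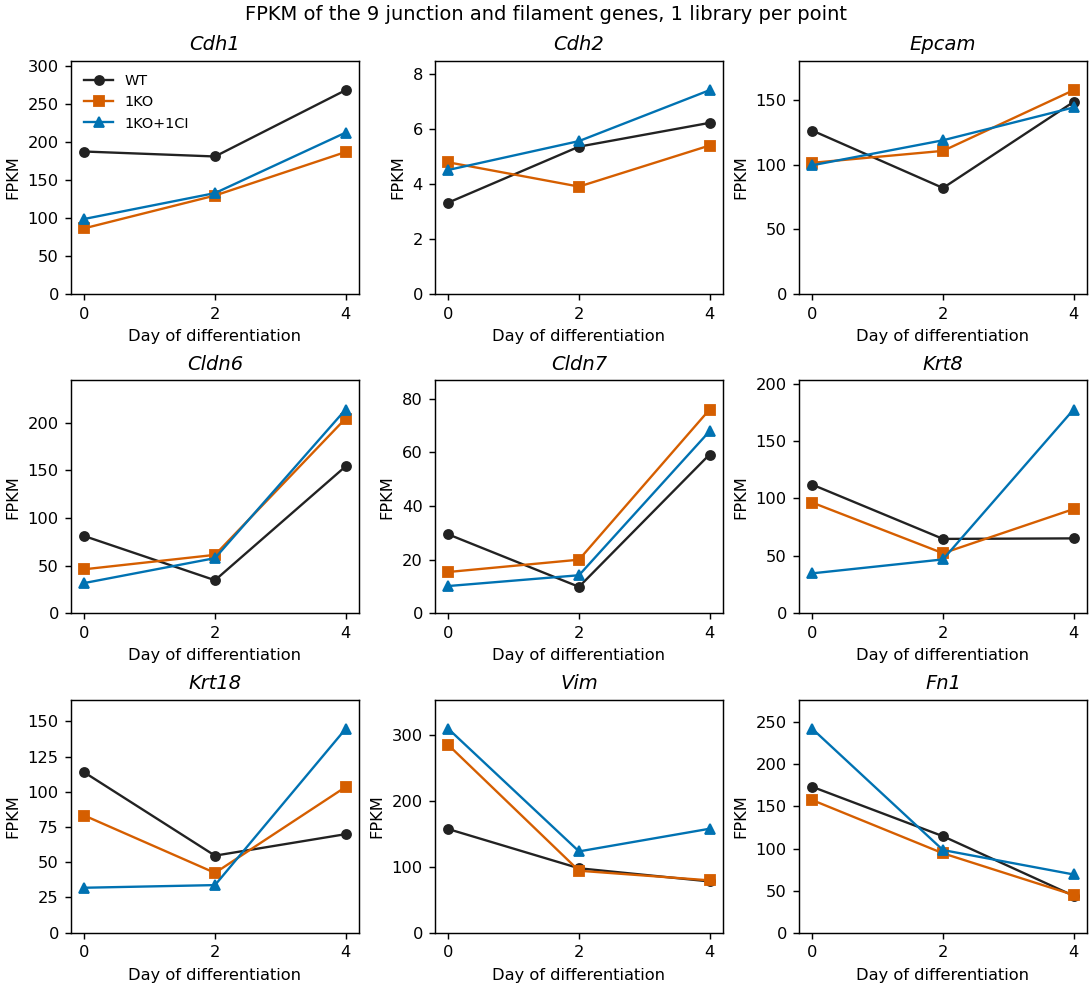
FPKM of each gene (vertical axis, starting at 0, scaled per gene) against day of differentiation (horizontal axis) for WT (circles), 1KO (squares) and 1KO+1CI (triangles), 1 library per point and no error bars. Cldn6 and Cldn7 have their highest value at day 4 in each line, and Fn1 its lowest. Krt8 and Krt18 are lower at day 4 than at day 0 in WT and higher in 1KO+1CI.

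Line differences were sparser. Between 1KO and WT, 1 of the 9 genes passed, a lower Cdh1 in 1KO, with 2.91% of all genes called. Between 1KO+1CI and WT, the limma fit called 0 of the 9 genes and 5.33% of all genes, and at an unadjusted p under 0.05 there were 2, Cdh1 and Vim. Between 1KO+1CI and 1KO, it called 0 of the 9 and 0.00798% of all genes, which is the single gene Dnmt1, and 2 of the 9, Vim and Fn1, had an unadjusted p under 0.05. A gene whose line difference has opposite signs at day 0 and day 4, as in the keratin genes, has a wide error and a small mean difference in this fit.

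**Figure D2:**
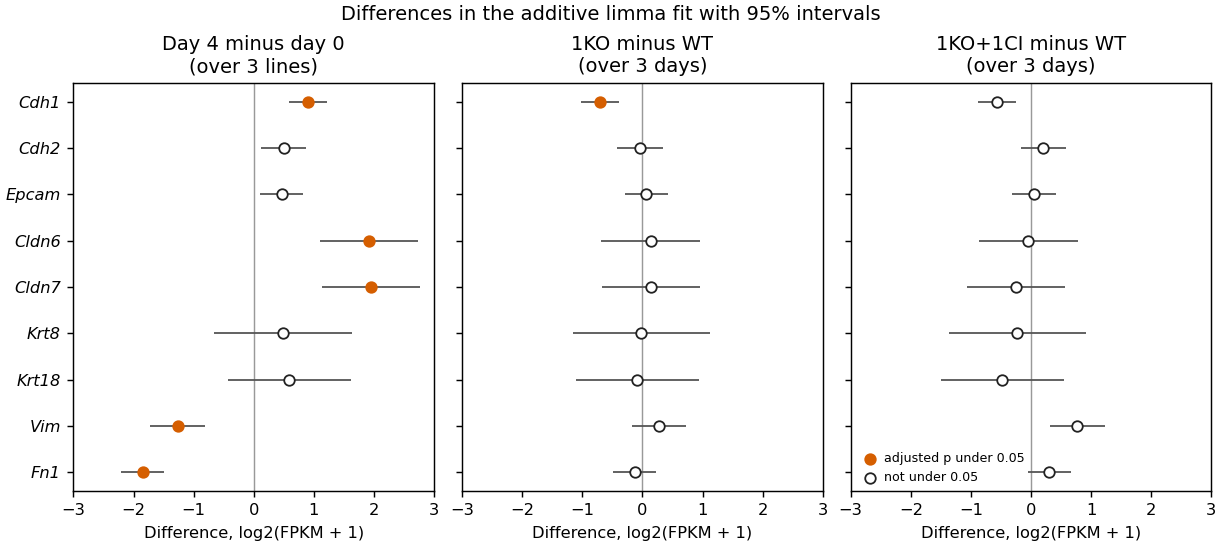
Differences in log2(FPKM + 1) from the additive limma fit (points) with moderated 95% intervals (lines) for day 4 minus day 0, 1KO minus WT and 1KO+1CI minus WT. Filled points have an adjusted p under 0.05; these are Cdh1, Cldn6, Cldn7, Vim and Fn1 for the day difference and Cdh1 for 1KO against WT.

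Promoter sequences are shown for the claudin and keratin pairs, because the members of each pair moved together over the libraries. RefSeq promoters (GRCm38.p6) were held for 6 of the 9 genes, and Cdh1, Cdh2 and Fn1 had none. The 250 bases before the RefSeq start hold 9 CpG dinucleotides, the substrate of DNMT1, in Cldn6 and 12 in Krt18. They hold 3 in Krt8, and 6 and 10 at the 2 starts of Cldn7, against a median of 6 over 32851 promoters. In Cldn6, Krt18 and Krt8 these 250 bases run past the start of the first annotated exon. The parts before it hold 3, 8 and 0 CpG in 134, 214 and 110 bases. Below, each sequence runs 5′ to 3′ on the gene's own strand up to the first annotated exon, with every CpG in capitals.
Cldn6, chr17:23679115-23679248, plus strand: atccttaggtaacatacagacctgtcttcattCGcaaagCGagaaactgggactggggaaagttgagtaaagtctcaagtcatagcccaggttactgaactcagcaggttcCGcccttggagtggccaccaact
Cldn7, chr11:69964529-69964778, plus strand: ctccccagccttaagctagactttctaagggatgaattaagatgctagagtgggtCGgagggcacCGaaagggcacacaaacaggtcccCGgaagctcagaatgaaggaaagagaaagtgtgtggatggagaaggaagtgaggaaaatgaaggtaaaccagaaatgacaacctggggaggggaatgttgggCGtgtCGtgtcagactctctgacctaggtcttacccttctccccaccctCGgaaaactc
Krt18, chr15:102027966-102028179, plus strand: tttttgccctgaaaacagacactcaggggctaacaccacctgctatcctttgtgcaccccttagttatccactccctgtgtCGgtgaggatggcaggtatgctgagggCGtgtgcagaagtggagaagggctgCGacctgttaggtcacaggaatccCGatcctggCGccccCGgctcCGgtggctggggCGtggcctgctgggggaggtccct
Krt8, chr15:102004483-102004592, minus strand: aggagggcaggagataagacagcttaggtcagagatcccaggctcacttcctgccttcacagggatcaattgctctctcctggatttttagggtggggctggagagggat

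Motif letters were searched on both strands of the same 250 bases. The E-box CACCTG, the letters bound by Snail and ZEB repressors of epithelial genes, occurs once each in Cldn6, Krt8 and Krt18. In Cldn6 and Krt8 it lies past the start of the first annotated exon, outside the sequences printed above. Epcam and the second start of Cldn7 hold it at 2 positions each, and the first start of Cldn7 and Vim have none. The bases searched for Vim and for the second start of Cldn7 lie wholly inside the annotated genes. Of all promoters, 17.2% hold it. The AP-2 letters GCCNNNGGC occur in Krt18 and Vim and in 13.7% of all promoters. The GRHL letters AACNNGTT occur in none of the 6 genes and in 3.64% of all promoters. These are matches of letters and were not tested as binding sites.

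Cdh1, which encodes E-cadherin, was the most abundant of the junction genes at the median over libraries. It was listed at 188, 181 and 268 FPKM in WT cells at days 0, 2 and 4, at 86.5, 129.7 and 187 FPKM in 1KO cells and at 98.9, 133 and 213 FPKM in 1KO+1CI. Day 4 was thus highest in each line, and WT was above both mutant lines on each day. The rise from day 0 to day 4 was 0.90 ± 0.14 (log2, SE over the 3 lines; adjusted p = 0.00276), 0.51 in WT against 1.10 in 1KO and 1.10 in 1KO+1CI. WT changed by -0.05 up to day 2 and by 0.57 after it, while 1KO had already gained 0.58 by day 2. The step from day 2 to day 4 was 0.59 ± 0.14 over the lines (adjusted p = 0.0169), but without WT day 2, 1KO day 4, 1KO+1CI day 2 or 1KO+1CI day 4 it no longer passed, with adjusted p up to 0.0839.

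The lower Cdh1 of 1KO cells was widest at day 0, at 0.461 of the WT level (counting interval 0.450 to 0.472). It narrowed to 0.716 at day 2 and 0.696 at day 4. Summed feeder fibroblast markers were also higher at day 0 in 1KO (232 FPKM) than in WT (113 FPKM), and their part in this gap was not tested. Over the days, Cdh1 fell by 0.70 ± 0.14 on the log2 scale from WT to 1KO (adjusted p = 0.0368). This call holds by a narrow margin. It was lost without WT day 2 and without any 1 of the 6 libraries of the mutant lines, with adjusted p over all 9 omissions between 0.0317 and 0.166, and with neither variance trend nor robust fit (adjusted p = 0.0587). For 1KO+1CI the difference from WT was -0.57 ± 0.14 (adjusted p = 0.0510) and in the same direction on 3 of 3 days, and without WT day 4 it passed with adjusted p = 0.0388. Between 1KO+1CI and 1KO, Cdh1 differed by 0.14 ± 0.14 (adjusted p = 1.0, 95% interval -0.18 to 0.45), with 1KO+1CI slightly higher on each day.

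Cdh2 encodes N-cadherin, the cadherin of neural and mesodermal cells, and was the least abundant of the 9 genes. It was listed at 3.32, 5.35 and 6.21 FPKM in WT cells, at 4.78, 3.90 and 5.39 FPKM in 1KO cells and at 4.50, 5.55 and 7.40 FPKM in 1KO+1CI. Day 4 was above day 0 in each line, by 0.74 (WT), 0.15 (1KO) and 0.61 (1KO+1CI) on the log2 scale. The day difference over the lines was 0.50 ± 0.17 and did not pass the test (adjusted p = 0.0571), though without 1KO day 0 it did (adjusted p = 0.0300). At these levels the added pseudocount makes a log2 difference smaller than the ratio of the FPKM values, which for day 0 of 1KO over WT was 1.44 (counting interval 1.26 to 1.65).

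In no library did the N-cadherin transcript come close to that of E-cadherin. The ratio of Cdh1 to Cdh2 in FPKM was 56.6, 33.9 and 43.2 in WT at days 0, 2 and 4, against 18.1, 33.3 and 34.7 in 1KO and 22.0, 23.95 and 28.7 in 1KO+1CI. It was lower at day 4 than at day 0 in WT and higher at day 4 than at day 0 in both mutant lines. At day 0, the low ratio of the mutant lines came with both a lower Cdh1 and a higher Cdh2 than in WT. The sum of 8 feeder fibroblast markers was also higher in the mutant lines at day 0, at 113 (WT), 232 (1KO) and 264 FPKM (1KO+1CI). The part of feeder RNA in the Cdh1 and Cdh2 values was not tested. These ratios are of single libraries and were not tested.

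Epcam encodes an adhesion molecule of epithelial cells that is also abundant in ESCs. It was listed at 126, 81.9 and 148 FPKM in WT cells, at 101, 111 and 158 FPKM in 1KO cells and at 99.5, 119 and 144 FPKM in 1KO+1CI. WT dipped at day 2, by 0.62 on the log2 scale, while both mutant lines were a little higher at day 2 than at day 0. By day 4 the 3 lines lay within 144 to 158 FPKM. Epcam had the narrowest range of the 9 genes, 1.92-fold from lowest to highest library. Of genes with at least 1 FPKM in all 9 libraries, 56.2% had a narrower one. Its rise from day 2 to day 4 was 0.54 ± 0.16 (adjusted p = 0.0367), and the call was lost without WT day 2, WT day 4, 1KO day 2, 1KO day 4 or 1KO+1CI day 4, with adjusted p up to 0.139, and also with TPM and with neither variance trend nor robust fit, with adjusted p up to 0.0610. Day 4 against day 0 gave 0.46 ± 0.16 (adjusted p = 0.0629), which passed without WT day 0 or WT day 2, with adjusted p down to 0.00976.

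Cldn6 and Cldn7 encode tight junction claudins, Cldn6 being known from early embryonic epithelia and ESC derivatives. Cldn6 was listed at 81.0, 34.7 and 154 FPKM in WT cells, at 46.3, 61.4 and 204 FPKM in 1KO cells and at 31.8, 58.0 and 214 FPKM in 1KO+1CI. Cldn7 was listed at 29.4, 9.88 and 59.2 FPKM in WT cells, at 15.4, 20.01 and 76.0 FPKM in 1KO cells and at 10.2, 14.2 and 67.9 FPKM in 1KO+1CI. In both genes the day 4 libraries of all 3 lines lay above every day 0 and day 2 library. The rise from day 0 to day 4 was 1.92 ± 0.35 for Cldn6 (adjusted p = 0.00800) and 1.95 ± 0.35 for Cldn7 (adjusted p = 0.00740), and both calls held when any 1 library was left out.

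The claudin time courses differed before day 2. In WT, Cldn6 and Cldn7 were 1.20 and 1.48 lower at day 2 than at day 0 on the log2 scale. In 1KO they were 0.40 and 0.36 higher, and in 1KO+1CI 0.84 and 0.44 higher. The gap between 1KO and WT in this step, 1.60 for Cldn6 and 1.84 for Cldn7, was matched or exceeded by 134 and 74 of the 12528 genes tested, with a median absolute gap of 0.26 over all genes. The order of the lines turned over. At day 0 WT had the highest level of both claudins, at day 2 the lowest, and at day 4 again the lowest. From day 2 to day 4, each line gained a similar amount, 1.72 to 2.12 for Cldn6 and 1.87 to 2.47 for Cldn7, and the step over the lines was 1.90 ± 0.35 (adjusted p = 0.00901) and 2.17 ± 0.35 (adjusted p = 0.00583).

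Over the 9 libraries, Cldn6 stood at 2.60 to 4.08 times the FPKM of Cldn7. Of 12527 other genes, each was the one whose mean-centred profile lay closest to the other's, with a root mean square difference of 0.17 on the log2 scale against own spreads of 0.98 and 1.06. Next in likeness to Cldn6 came Mycl (0.23) and Mmp25 (0.27), and to Cldn7 came Pdlim3 (0.21) and Car14 (0.22). FPKM of Cldn7 appears to be a mean over 2 transcripts.

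**Figure D3:**
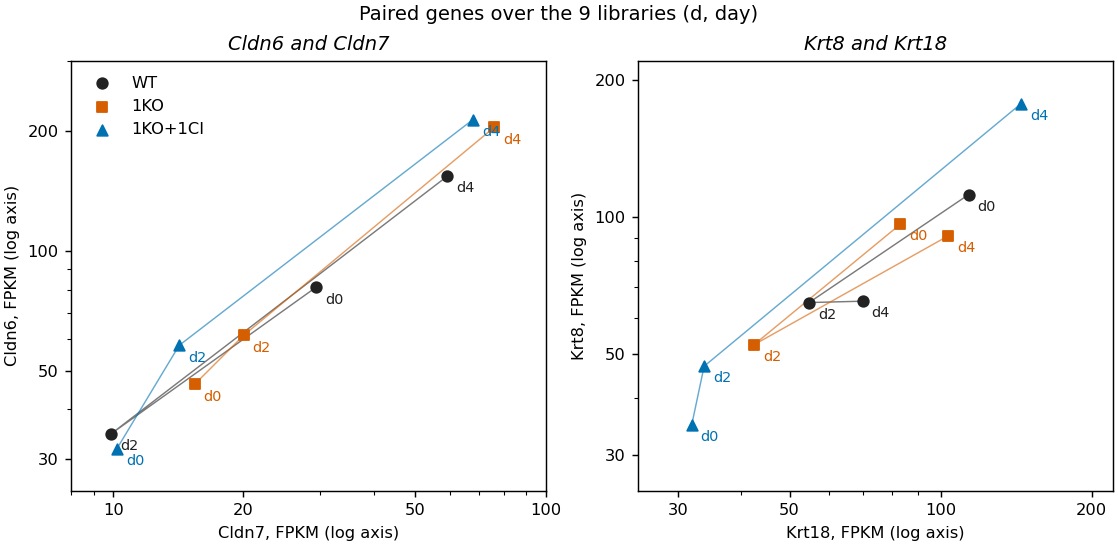
FPKM of Cldn6 against Cldn7 (left) and of Krt8 against Krt18 (right), both axes logarithmic, 1 point per library, with lines joining days 0, 2 and 4 (d0, d2, d4) of WT (circles), 1KO (squares) and 1KO+1CI (triangles). Both pairs run along a diagonal, with Cldn6 at 2.60 to 4.08 times Cldn7 and Krt8 at 0.878 to 1.39 times Krt18.

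Krt8 and Krt18 encode the type II and type I keratins that pair with each other in simple epithelia. Krt8 was listed at 112, 64.8 and 65.3 FPKM in WT cells, at 96.4, 52.3 and 90.8 FPKM in 1KO cells and at 34.8, 46.9 and 177 FPKM in 1KO+1CI. Krt18 was listed at 114, 54.7 and 69.9 FPKM in WT cells, at 83.1, 42.5 and 103 FPKM in 1KO cells and at 31.9, 33.8 and 145 FPKM in 1KO+1CI. WT was highest of the 3 lines at day 0 and lowest at day 4, while 1KO+1CI was lowest at day 0 and highest at day 4. At day 2 the lines lay closest, at 46.9 to 64.8 FPKM for Krt8 and 33.8 to 54.7 FPKM for Krt18.

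At day 0, the 1KO+1CI library held 0.361 of the 1KO level of Krt8 (counting interval 0.342 to 0.382) and 0.384 of that of Krt18 (0.358 to 0.411). These were the only genes of the 9 over 2-fold apart between 1KO+1CI and 1KO at day 0, where 0.511% of all genes were. Against WT the day 0 ratios were 0.311 and 0.281. At day 4, 1KO+1CI stood at 2.72 times the WT level of Krt8 and 2.07 times that of Krt18, and at 1.95 and 1.40 times the 1KO level. With line differences of opposite sign on different days, these genes had the widest errors of the 9 in the fit, with 1KO+1CI minus WT at -0.23 ± 0.49 for Krt8 (adjusted p = 0.847) and -0.48 ± 0.44 for Krt18 (adjusted p = 0.598).

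From day 0 to day 4, Krt8 was 0.77 lower in WT and 0.09 lower in 1KO but 2.32 higher for 1KO+1CI on the log2 scale. Krt18 was 0.69 lower, 0.31 higher and 2.14 higher in the same order. The gap of 3.09 between 1KO+1CI and WT for Krt8 was matched or exceeded by 20 of the 12528 genes, and that of 2.84 for Krt18 by 35. Over the lines, day 4 minus day 0 was 0.49 ± 0.49 for Krt8 (adjusted p = 0.498) and 0.59 ± 0.44 for Krt18 (adjusted p = 0.360). Day 4 was at or above day 2 in each line for both genes, 0.01, 0.78 and 1.90 for Krt8 in WT, 1KO and 1KO+1CI. This step did not pass either (0.90 ± 0.49 for Krt8, adjusted p = 0.207; 1.23 ± 0.44 for Krt18, adjusted p = 0.0750), although that of Krt18 passed without WT day 4 or 1KO+1CI day 0, with adjusted p down to 0.0203.

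The ratio of Krt8 to Krt18 stayed between 0.878 and 1.39, and each was the nearest gene to the other in profile (0.20), followed in both cases by 2200002D01Rik (0.27 and 0.25) and AI661453 (0.30 and 0.27). Krt19, another type I keratin of simple epithelia that is named here after its values were seen, was listed at 33.4, 17.9 and 23.2 FPKM in WT cells, at 16.1, 22.9 and 51.1 FPKM in 1KO cells and at 9.83, 16.5 and 96.1 FPKM in 1KO+1CI. Its lines stood in the same order as those of Krt8 and Krt18 at day 0 and at day 4, which does not hold for every keratin. Krt7 was at 9.92, 11.3 and 7.20 FPKM in WT, 1KO and 1KO+1CI at day 0, and Krt42 was at 0.469, 0.300 and 0.122 FPKM at day 4.

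Keratins are also markers of trophoblast and extraembryonic endoderm, so the markers of these cells are given beside them. The summed FPKM of 12 primitive endoderm markers was 173, 102 and 138 in the WT libraries and 252, 107 and 168 in those of 1KO. In those of 1KO+1CI it was 266, 146 and 296, and most of each sum came from Sparc and Col4a1. Sparc, also counted among the mesenchymal genes below, was at 135, 201 and 204 FPKM in WT, 1KO and 1KO+1CI at day 0. The summed feeder markers given below stood in the same order of lines at day 0. Of the 8 endoderm markers tested, 5 were higher in the transgenic line than in WT (Lama1, Cubn, Dab2, Gata6 and Col4a1), with 5.33% of all genes called. Sox17 and Sox7 were at 0.0582 to 1.63 FPKM, each highest in the day 4 library of 1KO+1CI. Of 8 trophoblast markers, 6 were in the table, Cdx2 and Elf5 being absent, and Gata3 was at 0.1555 to 0.857 FPKM. The summed level of these 6 was 45.6, 25.3 and 10.4 in the WT libraries and 62.8, 21.4 and 16.8 in those of 1KO. In those of 1KO+1CI the sum was 52.0, 21.1 and 18.7. It was led at day 0 by Tfap2c and by Krt7, itself a keratin, and both of these genes fell from day 0 to day 4. At day 0, where the keratins were lowest in 1KO+1CI, neither sum was lowest there, and at day 4 both sums stood in the same order of lines as the keratins, highest in 1KO+1CI. Their part in the keratin values was not tested.

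Vim encodes vimentin, the intermediate filament protein of mesenchymal cells. It was listed at 157, 97.8 and 77.9 FPKM in WT cells, at 285, 94.1 and 79.5 FPKM in 1KO cells and at 309, 123 and 158 FPKM in 1KO+1CI. Day 0 was highest in each line, and at day 0 Vim stood at 1.81 times its WT level in 1KO and at 1.97 times in 1KO+1CI. The fall from day 0 to day 4 was -1.27 ± 0.20 (adjusted p = 0.00351) and that from day 0 to day 2 was -1.19 ± 0.20 (adjusted p = 0.00751), the second being lost without 1KO day 2 (adjusted p = 0.0542). The line difference was 0.28 ± 0.20 for 1KO minus WT (adjusted p = 0.572) and 0.77 ± 0.20 for 1KO+1CI minus WT (adjusted p = 0.0628), the latter higher on 3 of 3 days and passing without 1KO day 0 (adjusted p = 0.0408). At day 4, Vim in 1KO+1CI was 2.03 times its WT level (counting interval 1.95 to 2.11), while 1KO and WT lay within counting error of each other (ratio 1.02, 0.975 to 1.07).

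Fn1 encodes fibronectin, an adhesion protein of the extracellular matrix. It was listed at 173, 115 and 43.9 FPKM in WT cells, at 157, 94.3 and 44.9 FPKM in 1KO cells and at 242, 98.2 and 69.2 FPKM in 1KO+1CI. It fell in steps and by like amounts in the lines, 1.96, 1.79 and 1.79 on the log2 scale from day 0 to day 4 in WT, 1KO and 1KO+1CI. Over the lines this was -1.85 ± 0.16 (adjusted p = 0.000289), the smallest adjusted p among the day 4 minus day 0 differences of the 9 genes. The early step was -0.87 ± 0.16 (adjusted p = 0.00932), lost without 1KO+1CI day 0 (adjusted p = 0.0557), and the late step was -0.97 ± 0.16 (adjusted p = 0.00495). Fn1 of 1KO+1CI minus WT was 0.30 ± 0.16 (adjusted p = 0.315). Its FPKM appears to be a mean over 7 transcripts.

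Fibroblasts express both Vim and Fn1, and the day 0 cultures were grown on fibroblast feeders. Of 10 feeder fibroblast markers, 8 were in the table, led by Col1a1 and Fbln2. Their summed FPKM was 113, 15.1 and 15.7 in the WT libraries, 232, 26.6 and 19.0 in those of 1KO, and 264, 39.0 and 35.8 in those of 1KO+1CI. All 8 fell from day 0 to day 4 (median -2.61) and all 8 from day 0 to day 2 (median -1.99). Of all genes, 13.1% and 8.74% fell over the same days. The sum at day 0 stood in the same order of lines as Vim. Fn1 differed from that order, being lower in 1KO (157 FPKM) than in WT (173 FPKM) and highest in 1KO+1CI (242 FPKM). Over the days, 3 of the 8 markers (Fbln2, Col1a2 and Dcn) were higher in the transgenic line than in WT, with 5.33% of all genes called. None of the 8 was at 0, and Col3a1 was at 0.364 to 1.55 FPKM at days 2 and 4. From day 2 to day 4, the median of the 8 was -0.08 and only Postn fell, while Fn1 fell by 0.97 on the log2 scale over that step. The sum at day 4 was 15.7, 19.0 and 35.8 FPKM in WT, 1KO and 1KO+1CI. Vim (77.9, 79.5 and 158 FPKM) and Fn1 (43.9, 44.9 and 69.2 FPKM) stood in the same order of lines there. In every library, day 0 included, the sum was below the level of Vim. In these bulk libraries, fewer cells of a type and less RNA per cell cannot be told apart, and the part of feeder RNA in the Vim and Fn1 values was not tested.

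**Figure D4:**
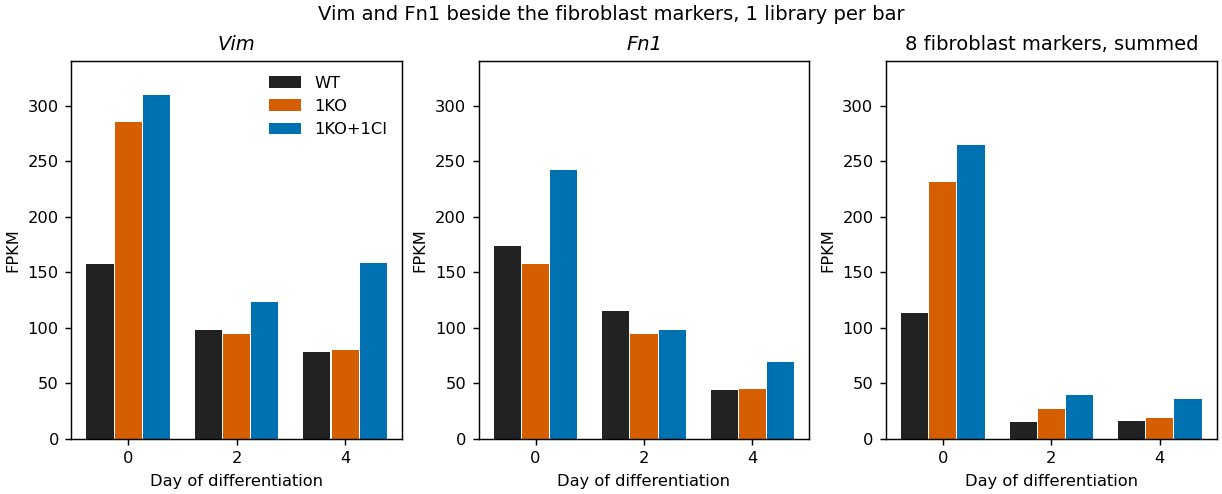
FPKM of Vim, of Fn1 and of 8 fibroblast markers summed (vertical axes, starting at 0, same scale) at days 0, 2 and 4 in WT, 1KO and 1KO+1CI, 1 library per bar and no error bars. All 3 are highest at day 0. The summed markers are below Vim in every library, at 113 to 264 FPKM at day 0 and 15.1 to 39.0 FPKM at days 2 and 4.

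The same values can be read library against library. At day 0, Cdh1 alone of the 9 was over 2-fold apart between 1KO and WT, where 4.56% of all genes were, and Cldn6, Cldn7, Krt8 and Krt18 were between 1KO+1CI and WT, where 5.41% were, all 4 lower in 1KO+1CI. At day 2, none of the 9 was over 2-fold apart, with 2.79% of all genes so between 1KO and WT, 0.418% between 1KO+1CI and 1KO, and 4.33% between 1KO+1CI and WT. The nearest was Cldn7, at 2.03 times its WT level in 1KO (counting interval 1.74 to 2.36) but 0.95 apart on the log2(FPKM + 1) scale. At day 4, none was over 2-fold apart between 1KO and WT (2.77% of all genes) or between 1KO+1CI and 1KO (1.12%), and Krt8, Krt18 and Vim were over 2-fold higher in the transgenic line than in WT (4.92%).

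Within the lines, the number of the 9 genes over 2-fold apart between day 0 and day 4 was 2 in WT, 5 in the 1KO line and 6 in 1KO+1CI, where 7.63%, 11.1% and 12.3% of all genes were. In WT these were Vim and Fn1, in 1KO Cdh1, Cldn6, Cldn7, Vim and Fn1, and in 1KO+1CI Cdh1, Cldn6, Cldn7, Krt8, Krt18 and Fn1. Between days 0 and 2, the genes were Cldn6, Cldn7 and Krt18 in WT (all lower at day 2; 7.36% of all genes), Vim in 1KO (5.69%), and Vim and Fn1 in 1KO+1CI (6.17%). Between days 2 and 4, they were Cldn6, Cldn7 and Fn1 in WT (9.92%), these 3 and Krt18 in 1KO (9.09%), and both claudins and both keratins in 1KO+1CI (8.09%). That the number differs between lines was not tested.

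Related genes of junctions, filaments and matrix were counted in the same fit. Of all genes tested, 12.5% rose and 13.1% fell from day 0 to day 4. The shares were 9.06% and 8.74% from day 0 to day 2, and 12.7% and 14.0% from day 2 to day 4. Between 1KO and WT, 2.91% of all genes were called, and between 1KO+1CI and WT 5.33%. The counts below are to be read beside these shares. Among other tight junction genes, 5 of 13 tested rose from day 0 to day 4 and 1 fell (median 0.72). The risers were Ocln (1.36, adjusted p = 0.00446), Marveld3 (1.33), Marveld2 (1.24), Cldn12 (0.97) and F11r (0.75), of which the first 3 encode occludin and its relatives. Among other adherens junction genes, 2 of 11 rose, Nectin1 (0.77) and Ctnnd1 (0.36), and 2 fell, Cdh11 (-1.61) and Cdh3 (-0.41). Cdh11 is a cadherin of mesenchymal cells. Cdh3, encoding P-cadherin, also fell from WT to 1KO (-0.67 ± 0.10, adjusted p = 0.0178). The catenin gene Ctnnb1 was at 211 to 268 FPKM in all libraries.

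Among desmosome and other keratin genes, 2 of 13 rose, Dsc2 (0.72) and Pkp2 (0.61), and 2 fell, Krt42 (-2.92) and Krt7 (-0.70). Both counts are near the shares of all genes, 12.5% rising and 13.1% falling. None of the 13 passed for the lines. Of 14 epithelial regulators and surface proteins, 7 rose and 1 fell, with a median of 0.59. The largest rise was that of Cd24a (1.84, adjusted p = 0.000142), and Prss8, Rab25, Esrp1, Spint1 and Grhl2 were also among those that rose. Grhl3 fell (-1.78).

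Of 9 transcription factors known to drive epithelial to mesenchymal change, 0 rose and 3 fell from day 0 to day 4 in the limma fit, namely Prrx1 (-1.98), Zeb1 (-1.64) and Twist2 (-0.79). From day 2 to day 4, after feeder removal, 3 of the 9 rose, Twist1 (0.67), Snai3 (0.52) and Tcf4 (0.49), and Zeb1 fell (-1.21), with a median of 0.29. Prrx1 was at 2.00, 5.47 and 8.11 FPKM in WT, 1KO and 1KO+1CI at day 0, the same order of lines as the summed feeder markers, whose part in these values was not tested. Snai1, a repressor of Cdh1 named here after its values were seen, was listed at 3.47, 1.55 and 1.59 FPKM in WT cells, at 3.68, 2.41 and 5.49 FPKM in 1KO cells and at 2.56, 2.59 and 6.40 FPKM in 1KO+1CI, and did not pass (adjusted p = 0.577). At day 4, primitive streak markers were also higher in the mutant lines, with a summed level for 7 genes of 23.6 FPKM (WT), 162 FPKM (1KO) and 153 FPKM (1KO+1CI), led by Fgf8 and Eomes, a difference between single libraries that was not tested. Cdh1 was at its highest value of the time course in the same libraries.

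Of 7 fibronectin receptor genes, Itga8 rose (0.59) and Itgb3 (-0.85) and Sdc4 (-0.58) fell. Itgb1, the beta subunit shared by many integrins, fell from WT to 1KO (-0.65, adjusted p = 0.0225), and Sdc4 was higher in the transgenic line than in WT (0.57, adjusted p = 0.0322). Of 16 other mesenchymal genes, 9 fell and 2 rose between days 0 and 4 (median -0.54). The steps differed in direction. From day 0 to day 2, 10 fell and 0 rose (median -0.94), and from day 2 to day 4, 5 rose, Tagln, Nes, Mmp2, Sparc and Mmp14, and 3 fell (median 0.27). Over the whole course, S100a4 (-3.00) and Tnc (-2.70) fell most, and Nes (1.33) and the smooth muscle gene Tagln (1.22) rose. Between 1KO+1CI and WT, 5 of the 16 were higher in the former, S100a4 (1.78, adjusted p = 0.00879) leading and Tnc, Mmp14 and Tgfb1 among them, and 1, again S100a4, was higher in 1KO than in WT (1.19). All 8 feeder markers also fell from day 0 to day 2 and from day 0 to day 4, as given above. From day 2 to day 4, 0 of the 8 rose, with a median of -0.08, unlike the mesenchymal genes. In the line contrasts, 3 of the 8 passed with a positive difference for 1KO+1CI against WT. For 1KO against WT, 1 did, Fbln2 (0.92, adjusted p = 0.0358). The part of feeder RNA in the values of the mesenchymal genes was not tested.

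**Figure D5:**
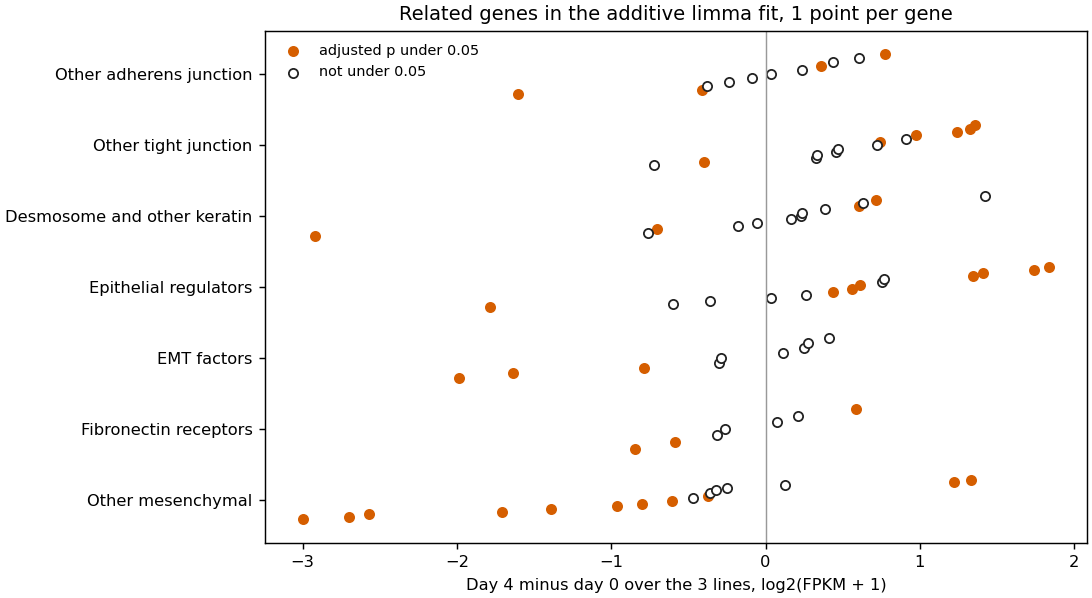
Day 4 minus day 0 difference in log2(FPKM + 1) from the additive limma fit (horizontal axis) for each tested gene of 7 related lists, 1 point per gene, spread vertically within a list for legibility; filled points have an adjusted p under 0.05. In tight junction genes and epithelial regulators 5 of 6 and 7 of 8 filled points lie above 0, and in other mesenchymal genes 9 of 11 lie below.

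The genes nearest in profile to the remaining members were Mfap3l (0.13), Zfp334 (0.14) and Ufsp2 (0.17) for Cdh1, Rce1 (0.12), Slc46a1 (0.13) and Tmco1 (0.14) for Cdh2, and Ppme1 (0.05), Eno1 (0.08) and Dyrk2 (0.09) for Epcam, as root mean square differences over the 9 libraries. For Vim they were Vegfd (0.19), Lrrc32 (0.20) and Tns1 (0.20), and for Fn1 Cpt1a (0.16), C1s1 (0.21) and Susd2 (0.22). Vim and Fn1 were 0.47 apart by this measure, against own spreads of 0.69 and 0.79. Of 12527 other genes, Fn1 was the 355th nearest to Vim, and Vim the 235th nearest to Fn1. Cdh1 and Epcam, both surface adhesion molecules of the same cells, were 0.40 apart, against own spreads of 0.50 and 0.29. Epcam was the 1354th nearest gene to Cdh1.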

How the data were processed

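Poly(A) RNA of 9 conditions (3 lines, 3 days) was sequenced, 1 library each. The deposited gene values are FPKM. To make them, the authors used Trim Galore for trimming, HISAT2 for alignment to mm10, SAMtools, and HOMER for counting and scaling. Their versions, strand setting, annotation release and treatment of multiply aligned reads were not given in the sources used. The repeat table was not used. Of 15095 rows, 21 named no gene (at most 0.117% of summed FPKM) and were left out, and 0 columns were unmapped to a sample.

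Values were analysed as log2(FPKM + 1) in limma 3.58.1 (R 4.3.3) with additive line and day terms, trended and robust variances and Benjamini-Hochberg adjustment over 12528 genes with at least 1 FPKM in at least 3 libraries. Single libraries were compared by a 2-fold threshold among genes with at least 1 FPKM in either. A fold change on this scale understates that of low genes. Depth was recovered from the steps in values of genes with 1 transcript, and intervals on ratios are exact 95% binomial (Clopper-Pearson). The fit was tested on simulated data. Named genes are the 9 members, Dnmt1, the called genes at the ends of each related list, leading genes of each marker list and the 3 nearest profiles, with a few others marked as chosen later. A few called genes of the related lists are counted but not reported here by name. Members and lists were chosen with earlier results of these data known. Alternatives were pseudocounts of 0.1 and 0.01, other filters, TPM and median-ratio scaling, no variance trend, and omission of each library. Other computations used Python 3.11.15 with pandas 2.3.3 and scipy 1.17.1. Gene positions are from GENCODE M21, promoters from RefSeq.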

Additional observations from a re-analysis of the deposited data

Results flagged for a closer look

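In 3 genes the 1KO+1CI line and WT moved in opposite directions by over 0.5 on the log2(FPKM + 1) scale over the same days. Each is a difference between single libraries, and that the lines differ was not tested. From day 0 to day 2, Cldn6 was 0.84 higher in 1KO+1CI and changed by -1.20 in WT. From day 0 to day 4, Krt8 was 2.32 higher in 1KO+1CI and changed by -0.77 in WT, and Krt18 was 2.14 higher in 1KO+1CI and changed by -0.69 in WT.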

How the results depend on the processing

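The values rest on 1 library per condition, so the tests compare lines and days with their departure from additivity, and no result measures variation between cultures or clones. The fit already takes day differences within the lines and line differences within the days, and no replicate block could be added because the labels carry no replicate number. Of the 9 genes, those past the adjusted threshold between day 0 and day 4 stayed at 5 under each of 7 other settings. For day 4 against day 2, the count of 5 became 4 with TPM and with neither variance trend nor robust fit, Epcam being lost in both. For 1KO against WT, the count of 1 became 0 with neither variance trend nor robust fit. For 1KO+1CI against WT, the count of 0 became 1 (Cdh1) with a pseudocount of 0.1, with a mean of at least 5 FPKM and with median-ratio scaling. Leaving out each library in turn gave 1 to 4 genes for day 2 against day 0, 5 to 6 for day 4 against day 0, 3 to 6 for day 4 against day 2, 0 to 1 for 1KO against WT and 0 to 1 for 1KO+1CI against WT. Of the counts over 2-fold, that between 1KO and WT at day 2 went from 0 to 1 with pseudocounts of 0.1 and 0.01, that between 1KO+1CI and 1KO at day 4 from 0 to 2 with TPM, and that between day 4 and day 0 of WT from 2 to 1 with median-ratio scaling. Without WT day 0, Cdh1 and Cldn6 also passed for day 2 against day 0 (adjusted p = 0.0147 and 0.0468). No called value of the 9 genes changed sign under the alternatives run.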
